A study of Mus musculus with 16 samples.

Results

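The colony-stimulating factors and their receptors were followed as 8 genes of the count table, chosen by symbol. The 4 ligand genes are *Csf1*, *Il34*, *Csf2* and *Csf3*, and the 4 receptor genes are *Csf1r*, *Csf2ra*, *Csf2rb* and *Csf3r*. All 8 were found among the 55487 gene IDs of the table. RNA had been sequenced in bulk from mouse skin cells sorted into CD45+ (immune) and CD45- (stromal) fractions, 6 h after stretching of the skin by suction (hypobaric pressure). Unstretched skin from the same area served as control. The 4 groups, each of 4 libraries, were immune stretched (numbers 1, 2, 7 and 8 in the labels), immune control (3, 4, 5 and 6), stromal stretched (5, 6, 7 and 8) and stromal control (1, 2, 3 and 4). The labels used here give no strain, age or sex, and do not say whether libraries came from separate animals, so the p-values cover the spread among these samples, which may be technical.

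The family controls how many myeloid cells are made, how long they live and what they do. CSF1 and IL-34 are separate ligands of 1 receptor, the tyrosine kinase CSF1R, on which monocytes, macrophages and the Langerhans cells of the epidermis depend. In skin, IL-34 is known as a keratinocyte product and CSF1 as a product of fibroblasts and other stromal cells. CSF2 (GM-CSF) binds a specific alpha chain, encoded by *Csf2ra*, that signals through the common beta chain encoded by *Csf2rb*. CSF3 (G-CSF) acts through CSF3R, the receptor that drives the output and release of neutrophils.

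Library totals lay between 2645421 and 26944965 reads, and in both fractions every stretched library was deeper than every control. *Ptprc*, which encodes CD45, had 219 to 699 CPM (read counts scaled to library size with TMM factors) in the 8 immune libraries and 0.0641 to 3.37 CPM in the 8 stromal libraries. Genes of olfactory and vomeronasal receptors (1735 in the table) took 5942 CPM of the library total in immune control 4, 408 in stromal stretched 7 and 200.3 in stromal stretched 8. The other 13 libraries held 17.8 to 68.7 CPM of them.

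The receptors were transcripts of the immune fraction, and the ligands were split between the fractions. In stretched skin the immune fraction was higher than the stromal fraction in all 4 receptors, *Csf2* and *Csf3*, and lower in *Csf1* and *Il34*, so that 6 members were called higher and 2 lower at an adjusted p under 0.05 (edgeR's quasi-likelihood test). Of all 17116 genes tested there, 49.0% passed, 23.9% higher and 25.1% lower. In control skin 5 members were higher and 1 lower in the immune fraction, against 49.4% of 15142 genes (26.6% higher and 22.8% lower). Stretch moved few members past the threshold. In the stromal fraction *Csf3* rose and was the 1 member called among 7 tested, while 4.98% of 16074 genes passed (2.05% higher and 2.93% lower). Of the genes called there 41.1% were higher with TMM scale factors and 69.1% without scale factors. In the immune fraction 0 of 8 members passed with edgeR, and 0 of all 14183 genes (0%). At an unadjusted p under 0.05 there were 1 member, *Csf2ra*, and 2467 genes (17.4%). DESeq2 and limma-voom also called 0 members there, though 781 and 888 genes.

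**Figure D1:**
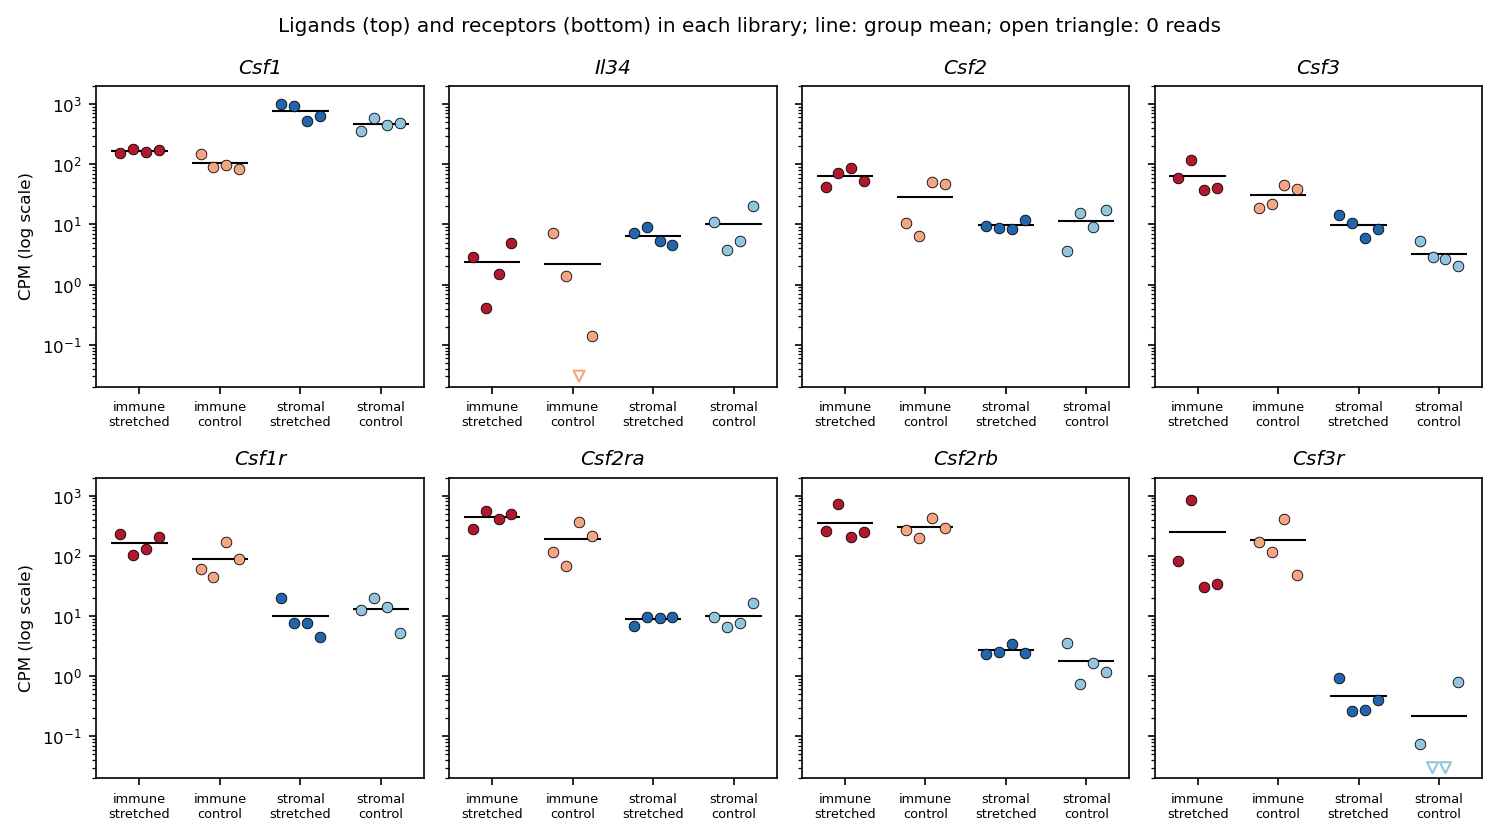
TMM-scaled CPM on a log axis for the ligands (upper row) and receptors (lower row), with 1 point for each library in order of its number, lines at the mean of 4 libraries and open triangles for 0 reads. *Csf1* is highest in the stromal libraries, the receptors are highest in the immune libraries, and *Csf3* is higher in each stretched stromal library (5.88 to 14.2 CPM) than in each stromal control (2.03 to 5.37 CPM).

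*Csf1* (ENSMUSG00000014599, chromosome 3, 107741048 to 107760469, GRCm38) was the most abundant ligand transcript of the stromal fraction. It had 999.9, 921, 519.7 and 627 CPM in stromal stretched libraries 5 to 8, against 353, 591, 444 and 489 CPM in stromal controls 1 to 4. Libraries 5 and 6 stood above all controls, library 7 lay below control 2, and the groups overlapped. Stretch gave a log2 fold change of 0.71 ± 0.25 (SE, n = 4 each), with an edgeR adjusted p of 0.105. Scaled to the library total in place of TMM the groups no longer overlapped (597 to 959.6 CPM in stretched, 344 to 578 CPM in control libraries). The share of all genes apart on that scale was not counted, and without scale factors the median log2 fold change of all genes was 0.15. DESeq2 called the gene (adjusted p 0.0387) as 1 of 2312 genes, where edgeR called 800.

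In the immune fraction *Csf1* had 154, 183, 158 and 173 CPM in stretched libraries 1, 2, 7 and 8, against 147, 91.8, 97.0 and 82.98 CPM in controls 3, 4, 5 and 6. Every stretched library was above every control, narrowly so for control 3, but with library totals as the scale the groups overlapped (126 to 163 against 87.9 to 151 CPM). Of the genes tested, 8.55% had every stretched library above every control. Stretch gave a log2 fold change of 0.50 ± 0.25, with an edgeR adjusted p of 0.330. The difference of the 2 stretch effects (immune minus stromal) was -0.03, with a 95% interval of -0.83 to 0.76.

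Between fractions the order of *Csf1* was stromal stretched, stromal control, immune stretched and immune control, and the 2 stromal groups overlapped. The immune fraction was lower by a log2 fold change of -2.33 ± 0.27 in stretched skin (adjusted p 0.000113) and -2.06 ± 0.28 in control skin (adjusted p 0.00017). The immune libraries also held transcripts of 7 fibroblast markers, with a sum of 1396 to 9981 CPM in the stretched and 1471 to 7308 CPM in the control group, against 46802 to 65409 CPM in stretched and 41086 to 56396 CPM in control stromal libraries. The part of those cells in the immune *Csf1* values was not tested. In bulk samples fewer cells of a type and less RNA per cell cannot be told apart.

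*Il34* (ENSMUSG00000031750, chromosome 8, 110741829 to 110805924), the second CSF1R ligand, was far less abundant. Stromal stretched libraries 5 to 8 had 7.12, 9.17, 5.30 and 4.56 CPM, and stromal controls 1 to 4 had 10.8, 3.70, 5.25 and 20.2 CPM. The controls spread more widely than the stretched libraries and enclosed all of them. The log2 fold change was -0.61 ± 0.47 (edgeR adjusted p 0.439), and without control 4 it was 0.03. Keratinocyte marker transcripts (8 genes) summed to 579 to 1579 CPM in the stretched and 146 to 1646 CPM in the control stromal libraries, and the control with the highest *Il34*, number 4, had the lowest sum.

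In the immune fraction *Il34* had 2.85, 0.413, 1.48 and 4.86 CPM in stretched libraries 1, 2, 7 and 8, against 7.30, 1.38, 0 and 0.139 CPM in controls 3, 4, 5 and 6. These are 2 to 92 reads in stretched and 0 to 36 reads in control libraries, and 0 reads in control 5 allow up to 0.737 CPM (3 reads, counting error only). The groups overlapped fully, and the log2 fold change was -0.04 with a 95% interval of -2.56 to 2.47. Here the libraries with more *Il34* were those with more keratinocyte marker transcripts. In stretched libraries 8, 1, 7 and 2 the marker sum was 875, 779, 354 and 58.3 CPM, and in controls 3, 4, 6 and 5 it was 2447, 625, 133 and 24.03 CPM. The part of those cells in *Il34* was not tested.

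Set per length, *Il34* made up 1.88 to 2.68% of the 2 CSF1R ligands in the stretched and 1.66 to 10.01% in the control stromal libraries. The immune fraction was lower in *Il34* by a log2 fold change of -1.5 ± 0.54 in stretched skin (edgeR adjusted p 0.0409), although the TMM-scaled groups overlapped. That call was lost in 8 of 20 alternatives, including the omission of any 1 of immune stretched 1 or 7 or stromal stretched 5, 6 or 7 (adjusted p 0.0617 to 0.104). In control skin the log2 fold change was -2.09 ± 1.05 (adjusted p 0.119). It was -4.29 without immune control 3 (adjusted p 0.00786), the library with the most keratinocyte transcripts. *Il34* shares 22 and 75 exonic bases with the antisense genes *Gm15894* and *Gm15895*, whose reads cannot be told apart from its own without the strand setting. These had at most 11 reads in any library.

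*Csf2* (ENSMUSG00000018916, chromosome 11, 54247271 to 54249667), the gene of GM-CSF, was mainly an immune-fraction transcript. It had 41.7, 72.7, 86.7 and 52.8 CPM in immune stretched libraries 1, 2, 7 and 8, against 10.8, 6.43, 51.3 and 46.4 CPM in immune controls 3, 4, 5 and 6. The controls split into 2 low libraries, 3 and 4, and 2 that overlapped the stretched group. Their log2 fold change was 1.02 ± 0.56 (edgeR adjusted p 0.363). In the stromal fraction 9.54, 8.86, 8.56 and 11.7 CPM in stretched libraries 5 to 8 lay inside the range of controls 1 to 4 (3.63, 15.3, 9.03 and 17.4 CPM). There the log2 fold change was -0.23 ± 0.39.

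The difference of the *Csf2* stretch effects was 1.38 ± 0.76, with an adjusted p of 0.288. For that difference 0 of 8 members passed with edgeR, as did 0 of all 18295 genes (0%). *Csf3r* is among the 8 through its immune reads. It had 6 to 20 reads in stretched and 0 to 14 in control stromal libraries, too few to judge its difference. At an unadjusted p under 0.05 there were 1 member, *Csf2ra*, and 4232 genes (23.1%). DESeq2 called 1625 genes and no member, and limma-voom called 1453 genes and 1 member, *Csf1r*. Immune libraries exceeded stromal libraries in *Csf2* by 2.58 ± 0.26 on the log2 scale in stretched skin, without overlap (adjusted p 5.01e-05). Of the genes tested in stretched skin, 26.6% lay apart in this direction. In control skin the value was 1.43 ± 0.65, the groups overlapped, and the adjusted p was 0.0894. *Csf2* overlaps the antisense gene *Gm12223* over 96 exonic bases, and that gene had at most 16 reads in any library.

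*Csf3* (ENSMUSG00000038067, chromosome 11, 98701263 to 98703629), the gene of G-CSF, was the member that rose with stretch in the stromal fraction. Stromal stretched libraries 5 to 8 had 14.2, 10.7, 5.88 and 8.52 CPM (152 to 312 reads), against 5.37, 2.90, 2.63 and 2.03 CPM in stromal controls 1 to 4 (36 to 71 reads). All stretched libraries were above all controls, most narrowly for stretched 7 and control 1. Of the genes tested, 7.78% had groups apart in this direction. The means were 9.83 ± 3.54 CPM in stretched libraries and 3.23 ± 1.47 CPM in controls (SD, n = 4 each), a log2 fold change of 1.61 ± 0.36 with a 95% interval of 0.81 to 2.42 and an edgeR adjusted p of 0.0442.

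The size of the *Csf3* change held better than its call. Over 20 alternatives the log2 fold change lay between 1.38 and 1.98, while the adjusted p ran from 0.000834 to 0.414 and missed 0.05 in 10 of them. Leaving out any 1 of stretched 6, 7 or 8 or of controls 1, 2 or 3 lost the call (adjusted p 0.0649 to 0.138), as did the title number as a block (0.414). Some markers of other cells tended higher in the stretched libraries, though the CPM ranges given here overlapped between groups. *Ptprc* had 0.913, 0.97, 3.37 and 1.25 CPM in stromal stretched libraries 5 to 8, against 0.605, 0.158, 0.0641 and 1.29 CPM in stromal controls 1 to 4 (adjusted p 0.197). Every stretched library was above controls 1 to 3. Dendritic cell marker transcripts (7 genes) summed to 10.5 to 29.1 CPM in stretched and 9.92 to 12.99 CPM in control stromal libraries. Of these genes *Zbtb46* alone carried most of the sum (9.51 to 24.7 CPM and 8.26 to 11.96 CPM), so it says little of the other genes in the list. Lymphocyte marker transcripts (8 genes) summed to 0.956 to 3.65 CPM and 0.516 to 1.42 CPM. Skeletal muscle marker transcripts (6 genes) summed to 657 to 1582 CPM in stretched and 360 to 890 CPM in control stromal libraries. Of the 5 tested, 2 were called higher, beside 2.05% of all genes, and all 5 had a positive log2 fold change (median 1.28). Blood endothelial marker transcripts (6 genes) summed to 29.2 to 70.5 CPM and 13.97 to 39.5 CPM. All 6 had a positive log2 fold change (median 0.88), and none was called. Over the 2 dendritic cell genes tested the median was 0.78. Other marker lists differed in direction. Their median log2 fold change over tested genes was -0.80 for red blood cells, -0.70 for mast cells and -0.07 for fibroblasts. It was 0.01 for neutrophils, 0.09 for macrophages, 0.29 for monocytes, 0.51 for pericytes and smooth muscle and 0.65 for keratinocytes. The part of any of these cells in *Csf3* was not tested.

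The immune fraction held more *Csf3* than the stromal fraction in both conditions. Immune stretched libraries 1, 2, 7 and 8 had 59.7, 119.7, 37.1 and 39.9 CPM, against 18.9, 21.6, 44.5 and 39.1 CPM in immune controls 3, 4, 5 and 6. Library 2 stood highest, and libraries 7 and 8 fell within the range of the controls. The stretch effect in the immune fraction was 0.92 ± 0.44 on the log2 scale (adjusted p 0.306), and the difference from the stromal effect was -0.57, with a 95% interval of -1.81 to 0.67. Immune libraries exceeded stromal ones by 2.58 ± 0.42 on the log2 scale in stretched skin (adjusted p 0.000938) and by 3.37 ± 0.42 in control skin (adjusted p 9.78e-05), without overlap. In control skin 22.4% of the genes tested lay apart in this direction.

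**Figure D2:**
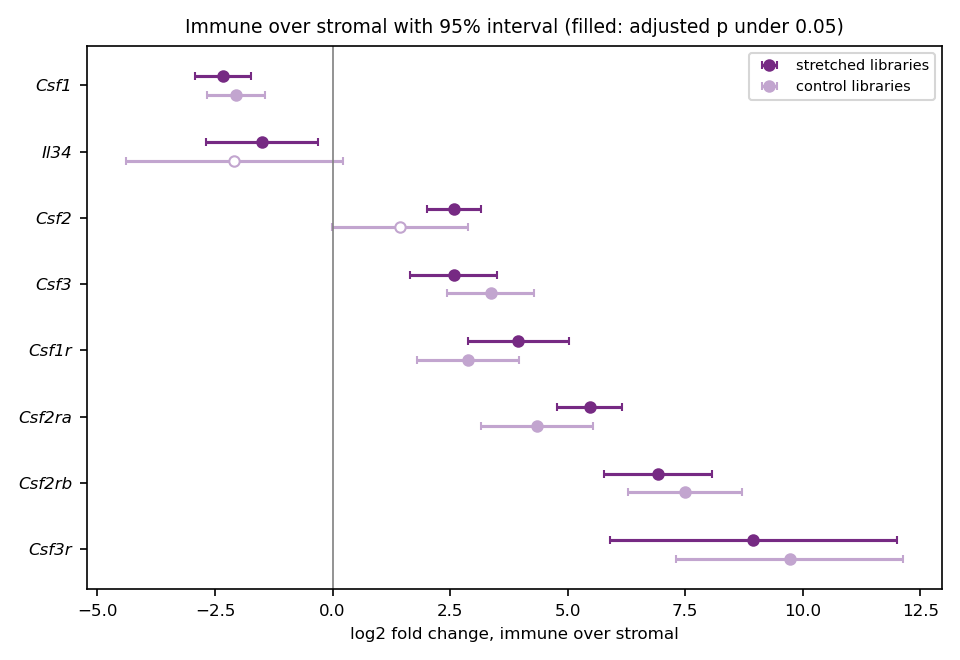
The log2 fold change of immune over stromal libraries with its 95% interval, for stretched (dark) and control (light) libraries, with filled points at an adjusted p under 0.05. *Csf1* and *Il34* lie below 0, and the receptors lie between 2.89 (*Csf1r*, control) and 9.72 (*Csf3r*, control).

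*Csf1r* (ENSMUSG00000024621, chromosome 18, 61100598 to 61132149), the receptor of CSF1 and IL-34, had 227, 105, 128 and 204 CPM in immune stretched libraries 1, 2, 7 and 8, against 60.7, 43.6, 169 and 86.7 CPM in immune controls 3, 4, 5 and 6. Control 5 lay inside the stretched range, and the other controls below it. With library totals as the scale, control 6 (93.96 CPM) also lay inside the stretched range (72.1 to 217 CPM). Stretched over control, the log2 fold change was 0.71 ± 0.41 (edgeR adjusted p 0.379). Macrophage marker transcripts (12 genes, all detected in every immune library) summed to 8274 to 15432 CPM in stretched and 3399 to 8517 CPM in control immune libraries. The largest part was *Lyz2* (6869 to 10171 CPM and 2054 to 4904 CPM), while *Mrc1* ran the other way (143 to 432 CPM and 289 to 745 CPM). Of the 12 genes 9 had a positive and 3 a negative log2 fold change, with a median of 0.42. The part of macrophages in the *Csf1r* values was not tested.

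The stromal fraction held a low level of *Csf1r*, 19.8, 7.62, 7.63 and 4.46 CPM in stretched libraries 5 to 8 and 12.6, 20.1, 14.3 and 5.23 CPM in controls 1 to 4. The groups overlapped and the log2 fold change was -0.40 ± 0.47. limma-voom, which down-weights libraries that stand apart, gave -1.19 with an adjusted p of 0.0446. Immune exceeded stromal libraries by 3.94 ± 0.48 on the log2 scale in stretched (adjusted p 0.000169) and 2.89 ± 0.49 in control skin (adjusted p 0.000697). This was the smallest difference among the 4 receptors in both conditions.

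Set beside the CD45 transcript, there were 2.26 to 21.7 *Csf1r* reads per *Ptprc* read in stretched and 4.04 to 223 in control stromal libraries, against 0.150 to 0.586 in stretched and 0.165 to 0.278 in control immune libraries. The stromal ratios rest on 20 to 87 *Ptprc* reads in stretched and 1 to 23 in control libraries, so counting error is large. Macrophage marker sums in the stromal fraction were 48.1 to 129 CPM in stretched libraries and 32.8 to 89.8 CPM in controls. The part of leukocytes in stromal *Csf1r* was not tested. *Csf1r* shares 873 exonic bases with *Hmgxb3* on the opposite strand, so reads of the 2 genes cannot be told apart where they overlap. *Hmgxb3* had 16.3 to 24.5 CPM in stretched and 7.37 to 11.3 CPM in control stromal libraries, where it rose (log2 fold change 1.25, adjusted p 0.0424). In immune libraries it had 9.24 to 13.05 and 7.10 to 34.9 CPM.

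*Csf2ra* (ENSMUSG00000059326, chromosome 19, 61223957 to 61228429), the specific chain of the GM-CSF receptor, had the highest mean level per length of the 8 genes in both immune groups, 151 ± 41.0 CPM per kb of exon in stretched and 66.0 ± 45.2 in control libraries. It had 282, 554, 407 and 491 CPM in immune stretched libraries 1, 2, 7 and 8, against 117, 66.8, 361 and 213 CPM in immune controls 3, 4, 5 and 6. Of the controls, number 5 reached into the stretched range. The log2 fold change was 1.06 ± 0.47, with an unadjusted p of 0.0461 and an edgeR adjusted p of 0.280. It lay between 0.69 and 1.57 in 19 alternatives and was called in none of them. The part of cell numbers in the *Csf2ra* values was not tested.

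In the stromal fraction *Csf2ra* had 6.85, 9.75, 9.33 and 9.73 CPM in stretched libraries 5 to 8, against 9.46, 6.49, 7.56 and 16.4 CPM in controls 1 to 4. The stretched libraries lay within the control range, and the log2 fold change was -0.15 with a 95% interval of -0.81 to 0.50. The difference of the stretch effects was 1.35 ± 0.59 (unadjusted p 0.0350, adjusted p 0.185). Immune exceeded stromal libraries by 5.47 ± 0.31 on the log2 scale in stretched (adjusted p 1.79e-06) and 4.34 ± 0.54 in control skin (adjusted p 9.74e-05).

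*Csf2rb* (ENSMUSG00000071713, chromosome 15, 78325752 to 78353847) encodes the common beta chain of the GM-CSF, IL-3 and IL-5 receptors. It had 254, 721, 207 and 244 CPM in immune stretched libraries 1, 2, 7 and 8, against 270.3, 198, 427 and 294 CPM in immune controls 3, 4, 5 and 6. Apart from library 2 the stretched libraries lay at or below the middle of the controls. Over all libraries the log2 fold change was 0.14 ± 0.46 (adjusted p 0.896), and without library 2 it was -0.53. Stromal levels were 2.33 to 3.41 CPM in stretched libraries and 0.739 to 3.56 CPM in controls (log2 fold change 0.61 ± 0.46, adjusted p 0.424). Immune exceeded stromal libraries by 6.92 ± 0.51 on the log2 scale in stretched (adjusted p 7.25e-06) and 7.50 ± 0.55 in control skin (adjusted p 4.32e-06).

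Counts of *Csf2rb* are uncertain because mice carry a near copy beside it, *Csf2rb2* (ENSMUSG00000071714, chromosome 15, 78282507 to 78305721), whose product serves IL-3 alone. The 2 coding sequences were identical at 2505 of 2631 aligned bases (95.2%). Of the 50-base windows of the longest *Csf2rb* transcript, 18.4% occurred unchanged in that of *Csf2rb2*, and 6.96% of the 100-base windows did. Over 2336 gap-free windows of 60 coding bases the 2 genes differed at 0 to 13 bases. Coding bases 12 to 71 are shown as an example of how alike they are, with the 2 bases that differ in capitals (GENCODE M21 transcripts):
Csf2rb: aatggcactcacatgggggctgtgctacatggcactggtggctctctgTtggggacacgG
Csf2rb2: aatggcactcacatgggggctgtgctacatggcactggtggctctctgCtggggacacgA
*Csf2rb2* took 13.4 to 16.1% of the reads of both genes in stretched and 9.58 to 22.6% in control immune libraries, and 32.3 to 38.1% in stretched and 12.5 to 39.5% in control stromal libraries. In the stromal fraction *Csf2rb2* had 26 to 45 reads in stretched and 3 to 17 in control libraries (log2 fold change 1.24 ± 0.53, adjusted p 0.160), without overlap. How reads that fit both genes were counted is not given in the sources used here. With the counts of both genes summed, *Csf2rb* kept its calls in the comparisons between fractions and had none under stretch.

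*Csf3r* (ENSMUSG00000028859, chromosome 4, 126024550 to 126044440), the G-CSF receptor, was the most variable member. Immune stretched libraries 1, 2, 7 and 8 had 81.6, 859, 30.0 and 33.97 CPM, against 171, 117, 402 and 48.1 CPM in immune controls 3, 4, 5 and 6. Library 2 stood far above all others, and the other 3 stretched libraries lay below 3 of the 4 controls. The log2 fold change was 0.35 ± 1.07 (edgeR adjusted p 0.885) with all libraries and -2.13 without library 2 (adjusted p 0.123).

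Neutrophil transcripts varied over the same libraries. The sum of 12 neutrophil markers was 1051, 37430, 525 and 354 CPM in immune stretched libraries 1, 2, 7 and 8, against 7928, 3135, 10018 and 638 CPM in immune controls 3, 4, 5 and 6. The order of the 8 libraries by this sum was that of *Csf3r*, except that stretched 7 and 8 changed places, and with *Csf3r* on library totals controls 3 and 4 did too. *S100a8* and *S100a9*, the calprotectin genes that neutrophils transcribe in bulk, made up most of the sum in library 2 (14494 and 16104 CPM). The mature-neutrophil gene *Ly6g* ranged from 0.0498 to 109 CPM in stretched and 0.150 to 10.7 CPM in control immune libraries. The part of neutrophil number in *Csf3r* was not tested.

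**Figure D3:**
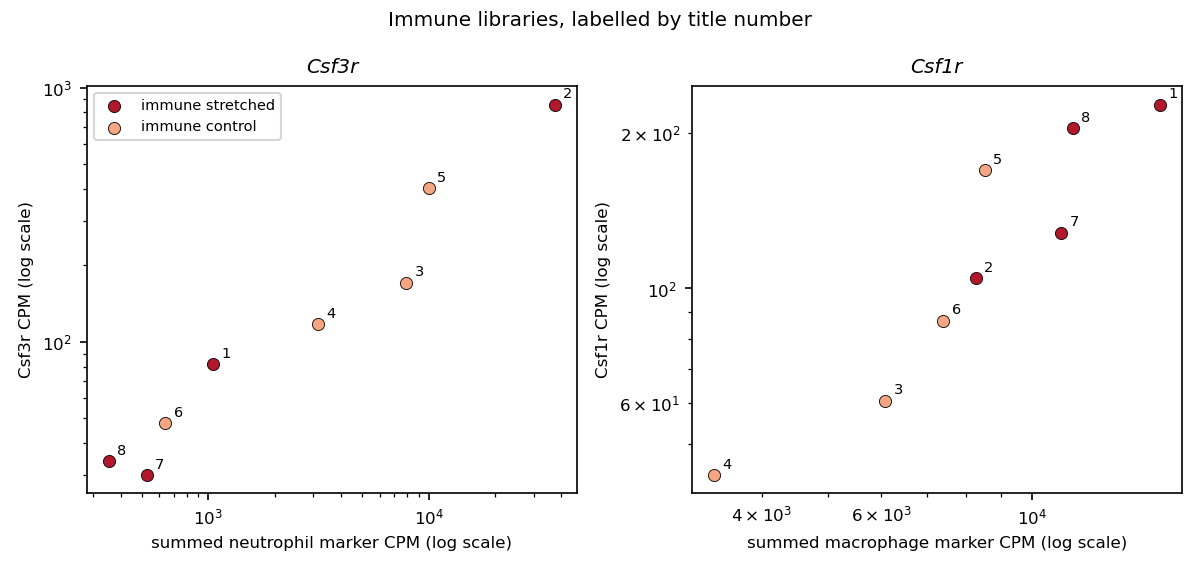
*Csf3r* against the summed neutrophil markers (left) and *Csf1r* against the summed macrophage markers (right) in the 8 immune libraries, each point labelled with its number, in CPM on log axes. Stretched 2 holds the highest *Csf3r* level and neutrophil sum (859 and 37430 CPM) and a *Csf1r* level of 105 CPM, and stretched 7 and 8 lie at the low end of the left panel.

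In the stromal fraction *Csf3r* was at 0.913, 0.266, 0.271 and 0.406 CPM in stretched libraries 5 to 8 and at 0.0757, 0, 0 and 0.788 CPM in controls 1 to 4, which is 6 to 20 reads and 0 to 14 reads. The 0 reads of controls 2 and 3 allow up to 0.158 and 0.192 CPM. The gene failed the filter on low counts in the stromal stretch comparison and was not tested there. Of the 12 neutrophil markers *Il1r2*, the decoy receptor of IL-1, carried the stromal sum (548 to 1011 CPM in stretched libraries and 617 to 781 CPM in controls). *S100a8* had 0.445 to 6.09 and 0.413 to 3.22 CPM there. Immune exceeded stromal libraries in *Csf3r* by 8.95 ± 1.38 on the log2 scale in stretched (adjusted p 0.000691) and 9.72 ± 1.10 in control skin (adjusted p 5.01e-05), without overlap.

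*Csf2ra* and *Csf3r* share a preference for the immune fraction, and their RefSeq promoters (GRCm38.p6) were read for the core of PU.1, the factor of myeloid cells encoded by *Spi1*. Promoters were read for 4 of the 8 members, *Csf1*, *Csf2*, *Csf2ra* and *Csf3r*, and for *Csf2rb2*. Those of *Il34*, *Csf3*, *Csf1r* and *Csf2rb* were not read, so the receptors are covered only in part. The 250 bases before the start are shown for both genes, with GAGGAA in capitals, at chr19:61228419-61228668 on the minus strand for *Csf2ra* and chr4:126024409-126024658 on the plus strand for *Csf3r*:
Csf2ra: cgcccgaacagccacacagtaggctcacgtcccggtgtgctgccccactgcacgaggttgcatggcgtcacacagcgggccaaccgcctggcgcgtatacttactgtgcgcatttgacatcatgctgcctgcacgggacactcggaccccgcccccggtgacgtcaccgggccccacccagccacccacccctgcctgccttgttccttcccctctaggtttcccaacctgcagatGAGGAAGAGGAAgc
Csf3r: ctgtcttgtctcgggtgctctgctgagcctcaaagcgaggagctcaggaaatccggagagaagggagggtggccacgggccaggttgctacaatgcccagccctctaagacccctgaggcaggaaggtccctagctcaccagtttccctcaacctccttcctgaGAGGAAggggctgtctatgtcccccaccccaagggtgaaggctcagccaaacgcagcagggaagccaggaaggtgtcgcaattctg
The match begins 14 and 8 bases before the RefSeq start in *Csf2ra* and 86 bases before it in *Csf3r*. The GENCODE starts (61228429 for *Csf2ra* and 126024550 for *Csf3r*) lie inside the windows shown, upstream of the RefSeq starts. By GENCODE the *Csf3r* match and the nearer *Csf2ra* match are therefore within the gene. *Csf2rb2* had 2 matches on the minus strand, and *Csf1* and *Csf2* had 0. On either strand, 28.1% of 32544 RefSeq promoters of the same 300 bases (250 before and 50 after the start) hold GAGGAA. The AP-1 motif TGANTCA (7.79% of promoters) and the CK-1 element known from cytokine promoters (0.0399%) were in none of the 5 windows. The RefSeq start of *Csf2* lies upstream of its GENCODE start, so its window misses the bases just before the GENCODE start. A match is a description of the letters and not a bound site.

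**Figure D4:**
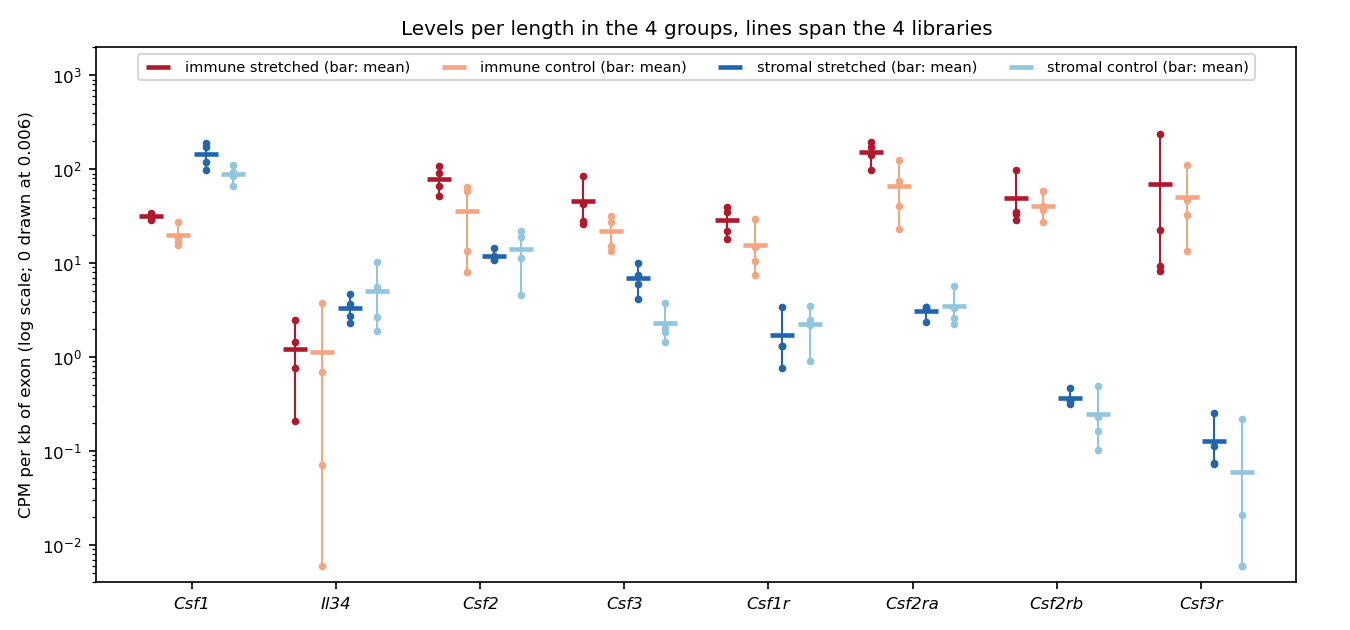
CPM per kb of exon on a log axis for each member in the 4 groups, with points for libraries, vertical lines over their range and bars at the mean, and 0 drawn at 0.006. *Csf1* leads the stromal groups (145 in stretched and 88.9 in control), *Csf2ra* leads the immune groups, and *Csf3r* in stretched immune libraries spans 8.32 to 238.

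Per length, the mean levels in the immune stretched group ran from *Csf2ra* (151 CPM per kb) through *Csf2* (79.3), *Csf3r* (69.6), *Csf2rb* (49.0), *Csf3* (45.4), *Csf1* (31.6) and *Csf1r* (28.7) to *Il34* (1.23). The libraries of neighbours in this order overlapped, from *Csf2ra* and *Csf2* (98.1 to 193 and 52.1 to 108) to *Csf1* and *Csf1r*, while *Il34* lay below all others. In the immune control group the order began with *Csf2ra* (66.0), *Csf3r* (51.1) and *Csf2rb* (40.8) and ended with *Csf1r* (15.6) and *Il34* (1.13). In the stromal groups *Csf1* led with 145 ± 43.6 CPM per kb in stretched and 88.9 ± 18.7 in control libraries. *Csf2* came next with 12.1 ± 1.75 and 14.2 ± 7.82. *Csf2rb* (0.367 and 0.245) and *Csf3r* (0.129 and 0.0598) closed it.

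**Figure D5:**
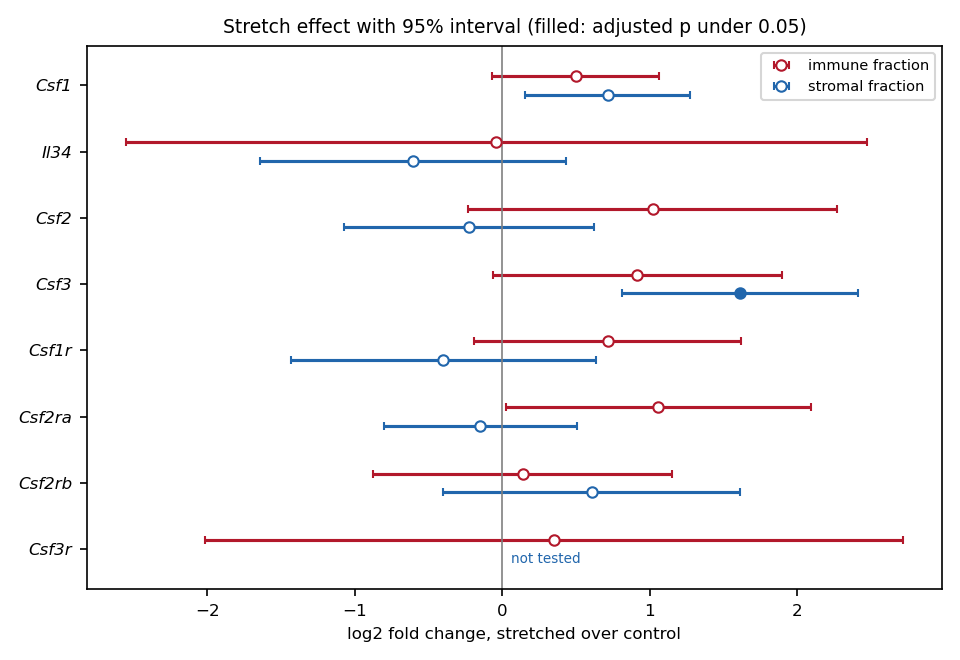
The log2 fold change of stretched over control libraries with its 95% interval in the immune (red) and stromal (blue) fractions, with filled points at an adjusted p under 0.05. *Csf3* in the stromal fraction is the filled point, at 1.61, and the intervals of *Il34* and *Csf3r* in the immune fraction span over 4 log2 units.

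The balance within receptor and ligand pairs was set out as read ratios in each library, which need no scaling between libraries. With *Csf3* over *Csf1* in the stromal fraction, the log2 ratios were -6.13, -6.43, -6.46 and -6.20 in stretched libraries 5 to 8, against -6.03, -7.66, -7.38 and -7.90 in controls 1 to 4. Control 1 lay above all stretched libraries and the other 3 below them. The difference was 0.94 (exact two-sided permutation test over samples, p 0.143, adjusted p 0.257 over 3 ratios), where 4 against 4 libraries allow a p of 0.0286 at the smallest. Without control 1 it was 1.34 (adjusted p 0.0857 in the same exact test). Control 1 was the library that kept the groups from lying apart, so the unadjusted p then took the smallest value that 4 against 3 libraries allow.

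With *Il34* over *Csf1* the stromal ratios were -7.13, -6.65, -6.61 and -7.10 in stretched libraries 5 to 8, against -5.02, -7.31, -6.39 and -4.60 in controls 1 to 4. Control 2 lay below the stretched libraries, and the difference was -1.04 (exact permutation p 0.171, adjusted p 0.257). *Csf3r* over *Csf1r* in the immune fraction gave -1.47, 3.04, -2.09 and -2.59 in stretched libraries 1, 2, 7 and 8, against 1.49, 1.42, 1.25 and -0.85 in controls 3, 4, 5 and 6. Stretched 2 was above all controls and the other stretched libraries below all of them. The difference was -1.61 (exact permutation p 0.343, adjusted p 0.343), and -2.88 without stretched 2 (adjusted p 0.171 in the same exact test).

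Other genes of the pathway were taken from lists. In the stromal fraction, of 19 genes that act directly below these receptors 2 rose and 0 fell, with a median log2 fold change of 0.40 beside 0.01 over all genes tested, of which 2.05% rose and 2.93% fell. The calls of single genes in these lists rest on adjusted p values near 0.05. No gene of the table was called in 1 fit of all libraries, with the replicate block, without the libraries with receptor-gene reads, or without any 1 of stretched 7 or 8 or of controls 1, 2 or 3. *Stat3*, the factor through which CSF3R signals, had 495 ± 14.5 CPM in stretched libraries and 264 ± 40.9 CPM in controls (SD, n = 4 each), a log2 fold change of 0.92 with an edgeR adjusted p of 0.0424. *Jak2*, the kinase bound to the common beta chain, had 86.8 ± 15.4 and 44.2 ± 7.42 CPM (0.98, adjusted p 0.0424). Of 8 tested genes that induce colony-stimulating factors, 2 rose and 0 fell (median 0.46). They were the cytokine receptors *Il17ra* (320.4 ± 52.9 against 186 ± 21.5 CPM, 0.79) and *Il1r1* (152 ± 36.0 against 87.7 ± 10.9 CPM, 0.80). Of 5 tested relatives of CSF1R and their ligands, the PDGF receptor gene *Pdgfrb* rose (158 ± 26.3 against 93.2 ± 15.04 CPM, 0.77, adjusted p 0.0483), and the median was 0.50. Among 10 tested myeloid transcription factors *Maf* fell (26.3 ± 9.73 against 64.8 ± 10.4 CPM, -1.30, adjusted p 0.0424), with a median of 0.04.

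In the 3 other stromal lists no gene passed. Of 9 genes of STAT feedback and survival (median 0.03), the signalling inhibitor *Socs2* had a log2 fold change of -0.96 (adjusted p 0.0631) and *Myc* one of 0.53. Of 8 stromal attractants of neutrophils and monocytes (median 0.12), *Lif* was at 0.67 and *Cxcl5* at 1.42 (adjusted p 0.375 and 0.531). Of the common beta chain family 2 genes were tested (median 0.25), and the IL-3 receptor chain *Il3ra* was at -0.75 (adjusted p 0.0758). *Il3* had 0 reads in all 8 stromal libraries.

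In the immune fraction 0 genes of the 7 lists passed the edgeR test of stretch. The largest list medians were 0.72 for 10 inducers, 0.59 for 4 genes of the common beta chain family and 0.48 for 9 genes of STAT feedback and survival, beside -0.02 over all genes tested. The other medians were 0.23 over 19 receptor-proximal genes, 0.13 over 8 attractants, 0.05 over 6 relatives of CSF1R and -0.09 over 13 myeloid transcription factors. *Socs3*, the feedback inhibitor of CSF3R signalling, had 684 ± 218 CPM in stretched libraries and 211 ± 60.6 CPM in controls (SD, n = 4 each), a log2 fold change of 1.53 with an adjusted p of 0.134. *Cish*, a STAT5 target, was at 1.04 (adjusted p 0.165), and the adaptor *Myd88* at 1.32 (0.134). *Spi1* was at 1.41 (0.195) and *Maf* at -1.23 (0.221). *Il3ra* was at -1.21 (0.155) and *Il5* at 1.63 (0.273). *Cxcl1* was at 0.94 (0.220), *Cxcl12* at 1.34 (0.281), *Shc1* at 0.72 (0.184), *Sos1* at -0.90 (0.214), *Kitl* at -0.73 (0.386) and *Flt3* at 0.59 (0.475).

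Each member was also set beside 14331 named genes that passed the filter on low counts, by the root mean square distance of log2 levels over the 16 libraries after centring. The distances describe these libraries, which share fraction, treatment and depth. Among the 3 genes nearest to *Csf3r* were *Cd300lf* (0.56 log2 units) and *Cyp4f18* (0.64). Among the 3 nearest to *Csf2rb* were *Pirb* (0.47) and *Rasgrp4* (0.49). *Csf2ra* was nearest to *Ccdc184* (0.36), *Dock8* (0.52) and *Il2ra* (0.52), and *Csf1r* to *Rilpl2* (0.63), *Otulinl* (0.66) and *Tep1* (0.66). Of the ligands, *Csf1* was nearest to *Tmem43* (0.35), *S1pr2* (0.35) and *Il15ra* (0.40). *Csf2* had *Me2* (0.55), *Ccdc69* (0.56) and *Mir155hg* (0.59), the host gene of miR-155. *Csf3* had *Arhgap25* (0.51), the NF-kappaB inhibitor gene *Nfkbie* (0.54) and *Bcl2l11* (0.57). *Il34* was the most distant from its neighbours *Avpr1a* (0.70), *Amy1* (0.72) and *Tmem30b* (0.77).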

How the data were processed

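The SMART-Seq mRNA LP kit served for cDNA and Nextera XT for the libraries, per the labels' protocols. FastQC 0.11.9 and alignment with STAR to mm10 are named in the submitters' processing notes. The table the authors deposited holds raw counts per Ensembl gene, without normalization. Not given in the sources used here are the counter, its strand setting and annotation, and how reads with several matches were treated. Symbols, positions and exon lengths came from GENCODE M21 (GRCm38).

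Each comparison used the 8 libraries of its own groups, and the difference of the stretch effects all 16, in edgeR 4.0.16 (R 4.3.3), with TMM scale factors, genes kept by filterByExpr (at least 10 reads, 15 in total), the quasi-likelihood F test and Benjamini-Hochberg adjustment over all genes tested. Genes with an adjusted p under 0.05 were called. CPM values are TMM-scaled over the 16 libraries, while library totals alone scale the sums over marker or receptor genes. CPM per kb divides by the union of exons. Read ratios had 0.5 added to each count and were compared with an exact two-sided permutation test. Reads carry no molecular identifiers, so limits from 0 reads cover counting error only. Named genes were all members, *Ptprc*, *Csf2rb2*, and from each of 7 lists every called gene, up to 4 in each direction, or the 2 of smallest p where none was called, with the 3 nearest profiles of each member. Of these profiles 2 are not reported here. *Il3*, *Hmgxb3*, the antisense genes and single marker genes were named after their values were seen. Alternatives were RLE or no scale factors, DESeq2 1.42.0, limma-voom (limma 3.58.1) with quality weights, no or a stricter filter (50 reads in 4 libraries), the number as a block, length and GC offsets, thinning, both *Csf2rb* genes summed, all libraries in 1 fit, and the omission of libraries. No scale factors was added after the data were seen. Simulated counts with known changes were used to check the size and sign of the fold changes. They held independent libraries without an outlying library or a shift in cell mix, so they do not vouch for the calls. The members, lists and alternatives were chosen with earlier results of these data known.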

Additional observations from a re-analysis of the deposited data

Results flagged for a closer look

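In 6 of 38 sets of 4 libraries, 1 library lay far from the other 3, with a gap to its nearest neighbour beyond Dixon's critical share of the range. For independent values with a normal distribution the rule flags about 1 set in 20. CPM values need not follow that distribution and the sets share libraries, so 6 of 38 cannot be set against that rate. Immune stretched 2 had 859 CPM of *Csf3r*, where the next library of its group had 81.6 CPM, and 721 CPM of *Csf2rb*, where the next had 254 CPM. The same library had the highest sum of neutrophil markers, 37430 CPM. Stromal control 4 had 0.788 CPM of *Csf3r* (14 reads), where the next control had 0.0757 CPM (1 read). Stromal stretched 5 was low in *Csf2ra*, at 6.85 CPM where the next had 9.33 CPM. Stromal stretched 7 was high in *Csf2rb*, at 3.41 CPM where the next had 2.48 CPM, and it is 1 of the 3 libraries with many receptor-gene reads. Immune control 6 had a log2 ratio of *Csf3r* to *Csf1r* reads of -0.85, where the next control had 1.25, and the lowest neutrophil sum of the controls, 638 CPM.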

How the results depend on the processing

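The calls between fractions held for *Csf1*, *Csf3* and the 4 receptors in every alternative that gave a value, in stretched and in control skin. *Csf2* in stretched skin also kept its call. The stromal stretch count rests on adjusted p values near 0.05. It was 800 genes with 1 member, and 2312 with 2 under DESeq2, 3599 with 2 under limma-voom, 2115 without a filter and 1378 under the stricter filter. It was 4 with 0 under length and GC offsets, and 0 with 0 in 1 fit of all libraries, with the replicate block and without the libraries with receptor-gene reads. Leaving out 1 library gave 0 to 1589 genes and 0 to 1 member. The immune stretch count, 0, was 781 under DESeq2, 888 under limma-voom, 667 in 1 fit of all libraries, and 0 to 45 without 1 library (45 without immune stretched 2). The count for the difference, 0, was 1625 under DESeq2, 1453 with 1 member under limma-voom, 3924 without a filter, 120 under the stricter filter, 79 after thinning, 2 without scale factors, 2 with the replicate block, and 0 to 1495 without 1 library (1495 without immune control 6, 114 without immune stretched 2, 29 without immune control 4). The stretched immune against stromal count, 8380, was 4780 with the replicate block and 5402 without the libraries with receptor-gene reads. The cause was not tested.

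Members that did not pass changed direction in these settings. Stromal *Csf2* was at 0.26 with offsets, 0.16 in limma-voom, 0.01 without stromal control 2 and -0.48 to 0.058 without 1 library (highest without control 4). Stromal *Csf2ra* was at 0.21 in limma-voom, 0.027 without scale factors and 0.22 without control 4, *Csf1r* at 0.051 without the libraries with receptor-gene reads, and *Il34* at 0.73 with the block and -0.82 to 0.030 without 1 library (highest without control 4). Immune *Csf2rb* was at -0.41 in limma-voom, -0.20 without scale factors, -0.26 with the block and -0.53 (without stretched 2) to 0.34 without 1 library. Immune *Csf3r* was at -1.25 in limma-voom, -0.14 without scale factors, -0.02 without control 6 and -2.13 (without stretched 2) to 1.01 without 1 library. Immune *Il34* was at 0.19 in 1 fit, 2.57 in limma-voom, 0.11 without a filter, 1.86 with the block, 0.27 without stretched 2, 0.12 without stretched 7, and -0.62 to 2.05 without 1 library (highest without control 3). The difference for *Csf1* was 0.015 with offsets, 0.16 in limma-voom, 0.23 with the block, and -0.38 to 0.15 without 1 library (0.02 to 0.15 without immune stretched 1 or 7 or stromal stretched 5 or 6). Without 1 library that for *Csf3r* was -3.68 to 0.11 (highest without immune control 5), and that for *Il34* was -0.067 to 2.74 (lowest without stromal control 4). The stromal reads of *Csf3r* were too few to judge its difference.

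The ratio of *Csf3* to *Csf1* differed by 0.72 to 1.34 without 1 library, that of *Il34* to *Csf1* by -1.53 to -0.63, and that of *Csf3r* to *Csf1r* by -2.88 to -1.01. Without stromal control 1 (1.34) and without stromal control 2 (-1.53) the unadjusted exact permutation p fell under 0.05, the adjusted one being 0.0857. Each of these was the library that kept the groups from lying apart. Leaving it out sets the unadjusted p to the smallest value possible, so the fall is no further evidence. In control skin the higher immune *Csf2* passed in limma-voom (1.80), in 1 fit (1.34) and without immune control 4 (1.67), and fell to 0.26 with the block. Without scale factors the median of all genes moved to 0.15 (stromal stretch), -0.25 (immune stretch), 0.29 (control fractions) and -0.18 (stretched fractions), and the share of higher genes among stromal calls was 69.1%, against 41.1% with TMM. The numbers in the titles do not recur between stretched and control libraries of 1 fraction. The block was therefore fitted over all 16 libraries, where libraries of the 2 fractions with the same number had correlations of -0.12 to 0.16, and 1 of 8 correlated best with its own number. Immune controls are the shallowest libraries (2645421 to 6662268 reads), and *Il34* had 0 to 36 reads in them.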
